A study of Mus musculus with 16 samples.

Results

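Noncoding genes that carry small nucleolar RNAs (snoRNAs) in their introns were examined in brown adipose tissue (BAT) of OPA1 BKO mice. They were taken by name, as 9 hosts whose spliced RNAs are known substrates of nonsense-mediated decay: Gas5, Snhg1, Snhg3, Snhg4, Snhg5, Snhg6, Snhg8, Snhg12 and Snhg15. Transcripts of 8 of these 9 genes were found in the deposited tables by their symbol in the GENCODE M21 annotation, while Snhg4 had no match there and was not analysed here. The 8 hosts belong to 51060 genes with matched transcripts, of which 15632, including all 8 hosts, had enough counts to be tested. RNA was sequenced from the interscapular BAT of 7-week-old mice fed ad libitum and kept at room temperature, with 4 mice in each group of genotype and sex. WT mice were Opa1-flox and Cre-, and OPA1 BKO mice were Opa1-flox and Cre+, so the floxed Opa1 allele was shared by all 16 mice and the groups differed in the Cre transgene. Cre was driven by the Ucp1 promoter, which is active in thermogenic adipocytes, so the other cells of the tissue are not its target.

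A host gene of this kind is transcribed as 1 precursor. Splicing frees the introns, from which box C/D or H/ACA snoRNAs are trimmed and assembled with core proteins, and these snoRNAs then guide the 2′-O-methylation and pseudouridylation of ribosomal RNA. The joined exons leave the nucleus as an RNA that encodes no conserved protein, yet ribosomes can read a short frame near its 5′ end and stop far upstream of the last exon junctions, which is the arrangement that recruits UPF1 and triggers nonsense-mediated decay. Because that decay needs translation, spliced host RNAs are known to build up when translation or the decay factors are inhibited. Several hosts also belong to the 5′ terminal oligopyrimidine (TOP) class, whose RNAs begin with C and a run of pyrimidines, as those of ribosomal proteins do.

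The annotation places 30 snoRNA genes inside the 8 hosts, with 10 in Gas5, 8 in Snhg1, 5 in Snhg12, 2 each in Snhg3 and Snhg5, and 1 each in Snhg6, Snhg8 and Snhg15, counting Snord80 and Snora16a 2 times each because they are listed under 2 identifiers. On the GRCm38 (mm10) assembly Gas5 lies on the plus strand of chromosome 1 from 161034422 to 161038539, Snhg1 on the plus strand of chromosome 19 from 8723475 to 8726443, Snhg12 on the plus strand of chromosome 4 from 132308623 to 132311024 and Snhg15 on the minus strand of chromosome 11 from 6525591 to 6528760. Snhg3 lies on the minus strand of chromosome 4 from 132348014 to 132353686, Snhg5 on the minus strand of chromosome 9 from 88521050 to 88522929, Snhg6 on the minus strand of chromosome 1 from 9941959 to 9944118 and Snhg8 on the minus strand of chromosome 3 from 123507552 to 123508404. Of the 76 transcripts listed for these genes, some keep part of a snoRNA inside an exon (retaining). Others have no part of a snoRNA in an exon and at least 1 snoRNA in an intron (spliced). A spliced transcript need not span every snoRNA of its gene, and Gas5-201, Gas5-213, Gas5-220, Snhg1-209 and Snhg5-206, typed as retained_intron, count as spliced. The sequences below show the difference between both kinds at 1 intron each of Gas5, Snhg1 and Snhg12. In these hosts the division between both kinds of transcript differed most between genotypes. In each pair the first line holds the intron with 15 bases of exon on either side and the snoRNA in capitals, and the second line holds 20 bases on either side of the joint, with the base on each side of the joint in capitals.
Gas5-202 with Snord47 (chr1:161038082-161038158, plus strand): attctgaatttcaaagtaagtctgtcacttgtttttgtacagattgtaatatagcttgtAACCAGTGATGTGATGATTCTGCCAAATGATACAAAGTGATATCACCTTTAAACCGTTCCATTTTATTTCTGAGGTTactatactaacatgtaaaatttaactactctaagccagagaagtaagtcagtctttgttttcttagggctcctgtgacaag
Gas5-224 at the same intron: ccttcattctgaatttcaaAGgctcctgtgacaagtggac
Snhg1-215 with the snoRNA gene Gm24452 (chr19:8724531-8724602, plus strand): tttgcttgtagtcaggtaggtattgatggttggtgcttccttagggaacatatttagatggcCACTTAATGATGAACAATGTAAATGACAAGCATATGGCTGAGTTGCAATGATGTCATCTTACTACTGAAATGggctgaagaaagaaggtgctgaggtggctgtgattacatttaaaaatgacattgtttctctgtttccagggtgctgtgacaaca
Snhg1-211 at the same intron: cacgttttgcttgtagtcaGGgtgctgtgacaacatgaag
Snhg12-204 with Snora44 (chr4:132309941-132310069, plus strand): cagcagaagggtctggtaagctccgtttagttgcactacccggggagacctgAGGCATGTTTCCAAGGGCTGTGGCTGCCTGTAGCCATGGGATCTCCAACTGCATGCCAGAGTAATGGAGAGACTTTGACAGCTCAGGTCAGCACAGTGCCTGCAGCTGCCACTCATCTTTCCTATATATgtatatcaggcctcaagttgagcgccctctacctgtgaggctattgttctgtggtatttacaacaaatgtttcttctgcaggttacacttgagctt
Snhg12-206 at the same intron: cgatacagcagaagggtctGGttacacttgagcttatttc

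The first reading frame (the first ATG and its stop codon) was found in the spliced transcript with the most counts of each host. It had 23 codons in Gas5-224, 40 in Snhg1-211, 54 in Snhg12-206, 35 in Snhg15-204, 53 in Snhg6-203, 3 in Snhg5-201 and 1 in Snhg8-201, and 42 codons in Snhg3-204. Exon junctions more than 50 bases after the stop, the distance used in the usual rule for nonsense-mediated decay, numbered 7 in Gas5-224, 5 in Snhg1-211, 4 in Snhg5-201, 3 each in Snhg12-206 and Snhg15-204, 2 in Snhg8-201 and 1 in Snhg6-203, and Snhg3-204 had 0. Such a junction is common, since 70.9% of the 4397 noncoding transcripts of other genes with 2 or more exons had at least 1, while 31% had at least 3 and 10.7% at least 6. A frame of this kind is a description of the letters and was not tested for translation. The 5′ ends of 3 host transcripts that rose in OPA1 BKO mice and of the 1 without a downstream junction are printed to the end of the frame, which is in capitals.
Gas5-224: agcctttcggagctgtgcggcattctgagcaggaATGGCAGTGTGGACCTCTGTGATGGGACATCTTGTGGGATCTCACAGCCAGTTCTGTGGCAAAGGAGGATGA
Snhg1-211: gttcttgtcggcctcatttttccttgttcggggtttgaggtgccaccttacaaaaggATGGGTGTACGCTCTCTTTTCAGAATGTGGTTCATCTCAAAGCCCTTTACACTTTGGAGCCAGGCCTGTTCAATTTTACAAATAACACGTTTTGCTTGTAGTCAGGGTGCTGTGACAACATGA
Snhg12-206: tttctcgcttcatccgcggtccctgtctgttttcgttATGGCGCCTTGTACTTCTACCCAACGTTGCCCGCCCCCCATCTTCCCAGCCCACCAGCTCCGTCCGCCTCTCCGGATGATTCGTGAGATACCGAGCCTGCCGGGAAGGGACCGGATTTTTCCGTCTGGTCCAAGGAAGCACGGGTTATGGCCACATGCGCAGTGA
Snhg3-204: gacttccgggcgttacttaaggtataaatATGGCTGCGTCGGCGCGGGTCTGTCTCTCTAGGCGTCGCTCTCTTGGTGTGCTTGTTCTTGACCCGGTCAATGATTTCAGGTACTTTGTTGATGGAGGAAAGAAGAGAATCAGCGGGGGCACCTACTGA

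RefSeq start sites (GRCm38.p6) were available for 7 of the hosts, with 2 starts for Gas5. A C followed by at least 4 pyrimidines began within 3 bases of a RefSeq start in 4 of the 7, namely Gas5 (1 of its 2 starts), Snhg8, Snhg12 and Snhg3. It began at none of the RefSeq starts of Snhg1, Snhg5 and Snhg15. The result depends on the start used, since in GENCODE Snhg5-201 has such a run within 3 bases of its 5′ end and Snhg6-203 begins with one. The same run was present at 11.5% of all 32851 starts and at 34.2% of 76 starts of ribosomal protein genes, read on the strand of the gene. Windows of 30 bases on either side of the start are shown for 2 hosts with the run, in capitals, and for Snhg1 without it.
Gas5 (chr1:161035136-161035195, plus strand): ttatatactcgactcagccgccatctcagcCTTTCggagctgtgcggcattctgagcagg
Snhg12 (chr4:132308648-132308707, plus strand): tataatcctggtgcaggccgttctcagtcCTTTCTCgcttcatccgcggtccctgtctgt
Snhg1 (chr19:8723457-8723516, plus strand): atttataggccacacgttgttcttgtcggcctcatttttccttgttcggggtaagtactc

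The genotype labels were checked first on Opa1. Its level in CPM (counts scaled to library size after TMM normalisation) was 152 at the lowest, 180 at the median and 210 at the highest in the 8 WT mice, and 17.9, 24.6 and 36.9 in the 8 OPA1 BKO mice. The log2 fold change was -2.82 ± 0.15 (SE), with an adjusted p of 7.4e-10 in edgeR's quasi-likelihood test with Benjamini-Hochberg adjustment. Total estimated counts ranged from 13607283 to 23114534 per mouse. The share of counts from mitochondrial DNA was 26.5% ± 2.41 (SD, n = 8) for WT mice, against 6.71% ± 1.54 (SD, n = 8) for OPA1 BKO mice. The fold changes depended on the scaling. The median log2 fold change of all genes was 0.01 with TMM, 0.57 with library size alone and 0.81 for log2(TPM + 0.5). Comparisons between genotypes are given in TMM-scaled CPM. All 6 macrophage markers were detected in every mouse, and their summed level was 71.0 to 103 CPM in WT and 102 to 428 CPM in OPA1 BKO mice, with 5 of the 6 higher by the same test. The 6 skeletal muscle markers summed to 17.3 to 5658 CPM in WT and 2.86 to 13567 CPM in OPA1 BKO mice, with over 5000 CPM in 3 mice (OPA1 BKO male 1, OPA1 BKO female 2 and WT female 3). The 8 brown adipocyte markers, none of them at 0, summed to 7213 to 11198 CPM in WT and 4340 to 8740 CPM in OPA1 BKO mice, with Elovl3 higher (log2 fold change 2.99 ± 0.42), Adipoq (-1.38 ± 0.16) and Cidea (-0.43 ± 0.10) lower and the other 5 not passing in edgeR. Of the markers of other cells, 3 of 5 endothelial ones were lower (summed 743 to 1045 CPM for WT and 617 to 849 CPM for OPA1 BKO), 3 of 6 fibroblast and preadipocyte ones higher (426 to 688 and 472 to 993) and 2 of 6 lymphocyte ones lower (4.7 to 10.2 and 3.11 to 5.93), with none at 0. In bulk tissue, fewer cells of a type and less RNA per cell cannot be told apart, and the part of these cell types in the host results was not tested, apart from leaving out the 3 mice with most muscle RNA.

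Of the 8 hosts tested, 7 were higher in OPA1 BKO than in WT mice and 0 were lower, beside 20.8% of all genes higher and 20.2% lower (edgeR's quasi-likelihood test, Benjamini-Hochberg adjusted p under 0.05 over 15632 genes). The hosts were chosen with earlier results of these data known. With single mice left out, 5 or 6 hosts were higher and 0 or 1 lower. The median log2 fold change of the 8 hosts was 0.54, beside 0.01 over all genes. All 8 OPA1 BKO mice were above all 8 WT mice for Gas5 and Snhg12, or 2 of 8 hosts, as they were for 5.07% of all genes. Snhg3, at a log2 fold change of -0.26, was the 1 host that did not pass.

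Gas5, the host with the most snoRNAs and the highest level, had 35.9, 40.8, 47.2 and 45.9 CPM in WT females 1 to 4 and 55.4, 56.7, 56.4 and 60.3 CPM in OPA1 BKO females. In males it had 40.0, 41.1, 43.1 and 43.5 CPM in WT and 94.9, 89.6, 113 and 70.5 CPM in OPA1 BKO mice. No OPA1 BKO mouse was within the WT range, and the OPA1 BKO males lay above all OPA1 BKO females. The log2 fold change was 0.78 ± 0.12 (SE, 1.72-fold), with an adjusted p of 9.4e-05 in edgeR's quasi-likelihood test.

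Snhg12, which holds Snora44, Snora61, Snora16a and Snord99, had 10.5, 12.7, 14.8 and 12.8 CPM in WT females and 16.2, 16.5, 19.3 and 20 CPM in OPA1 BKO females. In males the levels were 13.6, 14.5, 13.4 and 13.8 CPM in WT and 24.4, 24.8, 31.5 and 16 CPM in OPA1 BKO mice. The groups did not overlap, with the lowest OPA1 BKO mouse, male 4, at 16 CPM and the highest WT mouse, female 3, at 14.8 CPM. This gave a log2 fold change of 0.65 ± 0.12 (SE, 1.57-fold, adjusted p = 0.00036, edgeR).

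Snhg1, which carries a cluster of box C/D snoRNAs that includes Snord22, had 14.9, 20.4, 22.9 and 18.1 CPM in WT females and 20.4, 25.3, 24.2 and 23.7 CPM in OPA1 BKO females. In males it had 17.9, 15.2, 17.2 and 16.2 CPM in WT and 25.3, 30.1, 30.7 and 23.7 CPM in OPA1 BKO mice. The groups overlapped in females, where OPA1 BKO female 1 was below WT female 3, and not in males. The log2 fold change over both sexes was 0.51 ± 0.10 (SE, 1.42-fold, adjusted p = 0.00088, edgeR).

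Snhg15, the host of Snora9 and the least abundant of the 8 per length in WT mice, had the largest fold change. It had 1.53, 2.81, 3.50 and 2.82 CPM in WT females against 3.71, 3.31, 4.2 and 6.10 CPM in OPA1 BKO females, and 2.90, 2.52, 1.98 and 3.53 CPM in WT males against 5.43, 7.24, 10.2 and 3.78 CPM in OPA1 BKO males. OPA1 BKO female 2 fell within the WT range, and the other 7 OPA1 BKO mice lay above it. The estimated counts behind these levels were 26 to 57 per WT mouse and 67 to 197 per OPA1 BKO mouse, and the log2 fold change was 0.99 ± 0.23 (SE, 1.98-fold, adjusted p = 0.0024, edgeR).

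Snhg5, the host of Snord50a and Snord50b, was at 6.68 CPM at the lowest, 7.44 at the median and 7.76 at the highest in WT mice, and at 7.41, 10.4 and 15.6 CPM in OPA1 BKO mice. OPA1 BKO female 1, at 7.41 CPM, was the 1 mouse within the WT range. This was a log2 fold change of 0.58 ± 0.11 (SE, 1.5-fold, adjusted p = 0.00064, edgeR). By its letters, 13.3% of the 31-base words of Snhg5 are shared with 3 other noncoding genes, so part of its reads could be assigned to either. Of these 3 genes, 9330159M07Rik was lower in OPA1 BKO mice (-0.60 ± 0.10, adjusted p = 0.00017, edgeR), opposite in sign to Snhg5. Whether the division of shared reads adds to the rise of Snhg5 was not tested.

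Snhg8 and Snhg6 changed least among the hosts that passed. Snhg8, the host of Snora24, was at 6.92, 8.98 and 10.2 CPM (lowest, median, highest) in WT and 7.47, 9.96 and 16.4 CPM in OPA1 BKO mice, with a log2 change of 0.31 ± 0.12 (SE, adjusted p = 0.043, edgeR). Snhg6, the host of Snord87, was at 8.31, 9.68 and 11.6 CPM in WT and 9.23, 11.2 and 12.8 CPM in OPA1 BKO mice, with a log2 change of 0.19 ± 0.07 (SE, adjusted p = 0.038, edgeR). The groups overlapped for both genes. Without single mice, the call was lost in 11 of 16 cases for Snhg8 (log2 fold change 0.25 to 0.38) and in 12 of 16 for Snhg6 (0.16 to 0.21), and without the 3 mice with most muscle RNA both were lost (0.24, adjusted p = 0.19, and 0.18, adjusted p = 0.10, edgeR).

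Snhg3, the host of Snora73a and Snora73b, had a fold change below 0 that did not pass. It was at 4.51, 4.89, 5.10 and 5.37 CPM in WT females and 3.84, 3.13, 4.55 and 3.96 CPM in OPA1 BKO females, and at 5.09, 6.17, 6.17 and 5.91 CPM in WT males and 5.51, 4.32, 4.72 and 6.19 CPM in OPA1 BKO males. The log2 fold change was -0.26 ± 0.10 (SE), with an adjusted p of 0.054 in edgeR's quasi-likelihood test and an unadjusted p of 0.023. It passed as lower when WT male 1 (-0.29, adjusted p = 0.038), OPA1 BKO female 3 (-0.29, 0.044) or OPA1 BKO male 4 (-0.31, 0.023) was left out, and its direction turned with library size alone (0.30) and with log2(TPM + 0.5) (0.69). Of its 31-base words, 68.6% also occur in Rcc1 or Gm17300, which overlap it, so the assignment of its reads is uncertain.

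**Figure D1:**
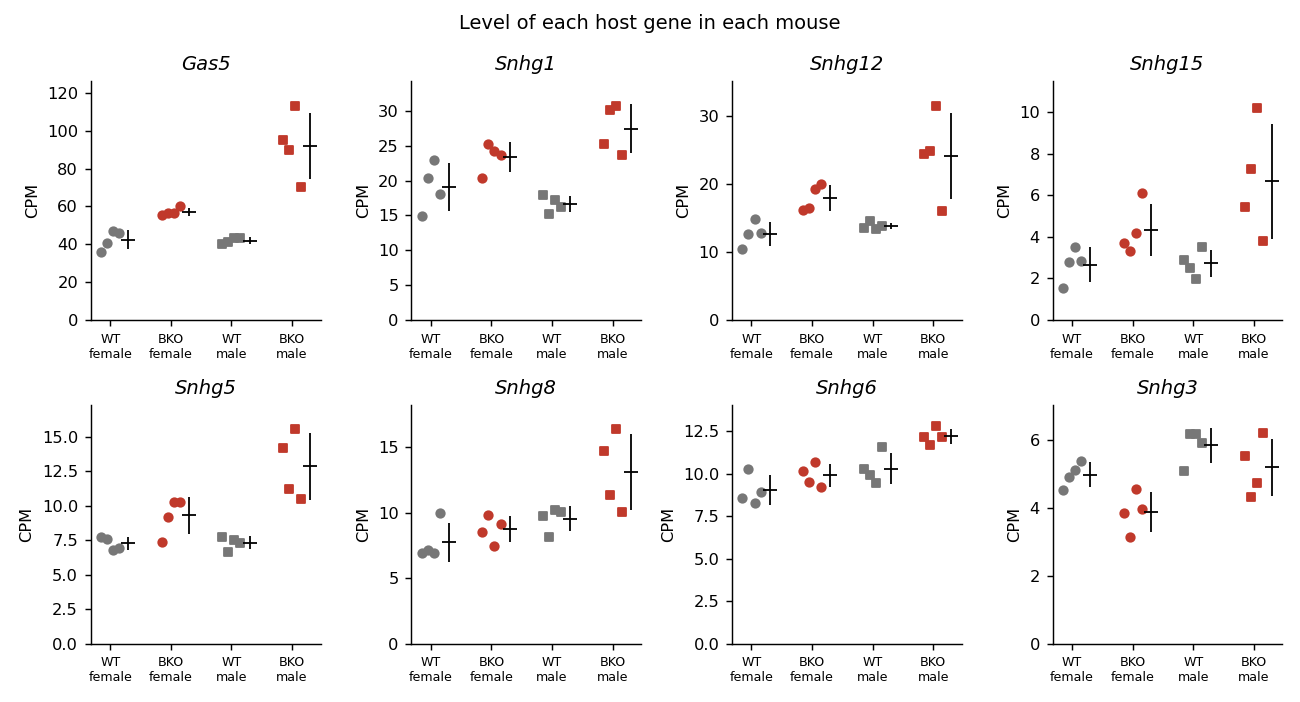
Level of each of the 8 host genes in TMM-scaled CPM (vertical axis, from 0) in each mouse, by genotype and sex (horizontal axis); circles are females, squares males, grey WT and red OPA1 BKO, and the black bar beside each group is the mean ± SD of 4 mice. For Gas5 the red points, from 55.4 to 113 CPM, all lie above the grey ones, from 35.9 to 47.2 CPM, and for Snhg3 7 of the 8 red points lie lower than or among the grey ones and OPA1 BKO male 4, at 6.19 CPM, just above the highest, at 6.17 CPM.

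Within females, Gas5 (0.43 ± 0.12, adjusted p = 0.020) and Snhg12 (0.50 ± 0.16, adjusted p = 0.042) were higher in OPA1 BKO mice by edgeR's quasi-likelihood test, or 2 of 8 hosts beside 8.96% of all genes. These female calls went to 0 without WT female 1 or WT female 2, and to 1 without any of 8 further mice of the 16 (WT female 4, WT males 1 and 4, OPA1 BKO females 2, 3 and 4, and OPA1 BKO males 1 and 2). Within males 6 of 8 hosts were higher beside 17.9% of all genes, with log2 fold changes of 1.13 ± 0.12 for Gas5, 0.72 ± 0.13 for Snhg1, 0.80 ± 0.16 for Snhg12, 1.28 ± 0.31 for Snhg15, 0.81 ± 0.14 for Snhg5 and 0.45 ± 0.16 for Snhg8. The 4 male OPA1 BKO mice were all above the 4 male WT mice for Snhg6 as well, where the adjusted p was 0.063 (edgeR). The log2 fold change was larger in males than in females for 8 of 8 hosts, these 8 values coming from the same mice.

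The difference between the sexes was tested as the interaction of genotype and sex. It passed for 0 of the 8 hosts, beside 0.115% of all genes, and 3 hosts had an unadjusted p under 0.05 in edgeR. Of these 3, Gas5 differed by 0.70 ± 0.17 on the log2 scale (adjusted p = 0.086, edgeR), Snhg5 by 0.46 ± 0.20 (0.34) and Snhg1 by 0.43 ± 0.18 (0.32), and Snhg15, with a p above that limit, by 0.58 ± 0.44 (0.63). Without OPA1 BKO male 4 the interaction passed for 1 host. Leaving out the 3 mice with most muscle RNA took the calls in females from 2 to 0 and in males from 6 to 5.

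**Figure D2:**
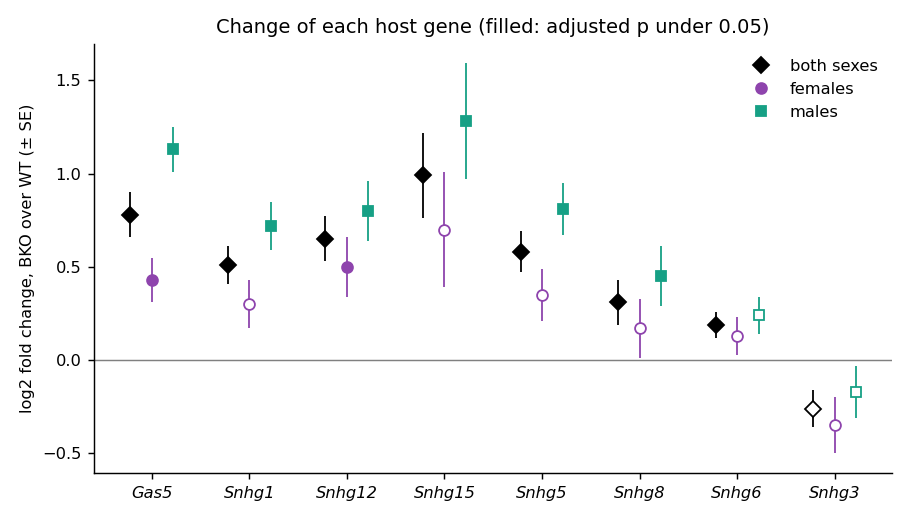
Log2 fold change of OPA1 BKO over WT mice with its SE (vertical axis) for each host gene (horizontal axis), over both sexes (black diamonds), in females (purple circles) and in males (green squares); filled symbols passed the test at an adjusted p under 0.05. The male value lies above the female one for 8 of 8 hosts, and Snhg3 has its values below 0, with an open symbol each time.

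Levels of different genes can be compared only per length. In WT mice, Gas5 stood first at 71.0 ± 8.81 TPM (SD, n = 8), and it was above the next gene in 8 of 8 mice. Snhg6 (24.7 ± 2.43 TPM), Snhg1 (24.4 ± 4.39 TPM) and Snhg8 (23.5 ± 4.27 TPM) followed and could not be put in order, since Snhg6 was above Snhg1 in 5 of 8 WT mice and Snhg1 above Snhg8 in 3 of 8. Snhg12 (16.1 ± 2.21 TPM) and Snhg3 (15.8 ± 1.15 TPM) were likewise not separated, with Snhg12 the higher in 4 of 8 WT mice. Snhg5 (8.31 ± 0.822 TPM) and Snhg15 (5.76 ± 1.65 TPM) were lowest, in that order in 8 of 8 mice.

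Per transcript, 40 of the 76 transcripts listed for the hosts had enough counts to be tested: 18 spliced, 21 retaining and 1 (Snhg15-202) that is neither. In OPA1 BKO mice 8 of the 40 were higher and 0 lower (edgeR's quasi-likelihood test over 40321 transcripts, of which 8.76% were higher), and the 8 were all spliced. They were Gas5-210 (log2 fold change 1.41 ± 0.20), Gas5-224 (1.14 ± 0.13), Snhg1-211 (1.00 ± 0.12), Snhg12-206 (1.65 ± 0.20), Snhg15-204 (1.95 ± 0.25), Snhg5-202 (1.09 ± 0.35), Snhg6-203 (0.40 ± 0.10) and Snhg8-201 (0.43 ± 0.14). Without the 3 mice with most muscle RNA the first 5 of these 8 passed and the other 3 did not.

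Snhg12-206, the spliced transcript printed above, was at 2.96 to 5.18 CPM in WT and 8.94 to 24.9 CPM in OPA1 BKO mice, whereas Snhg12-204, which keeps 3 snoRNAs, was at 2.19 to 3.80 CPM in WT and 1.34 to 3.07 CPM in OPA1 BKO mice. Snhg1-211 was at 8.14 to 12.7 CPM in WT and 15 to 24.6 CPM in OPA1 BKO mice, and Snhg1-215, which keeps 7 of the 8 snoRNAs of the gene, at 2.54 to 5.71 and 2.83 to 3.75 CPM. The spliced transcripts did not overlap between genotypes in either gene, and the retaining ones did. Of the 21 retaining transcripts, 11 had a log2 fold change below 0, none passed, and 1 (Gas5-218, 0.31 ± 0.13) had an unadjusted p under 0.05. The estimated counts of single transcripts rest on how kallisto divided shared reads, and that error is not in the test.

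**Figure D3:**
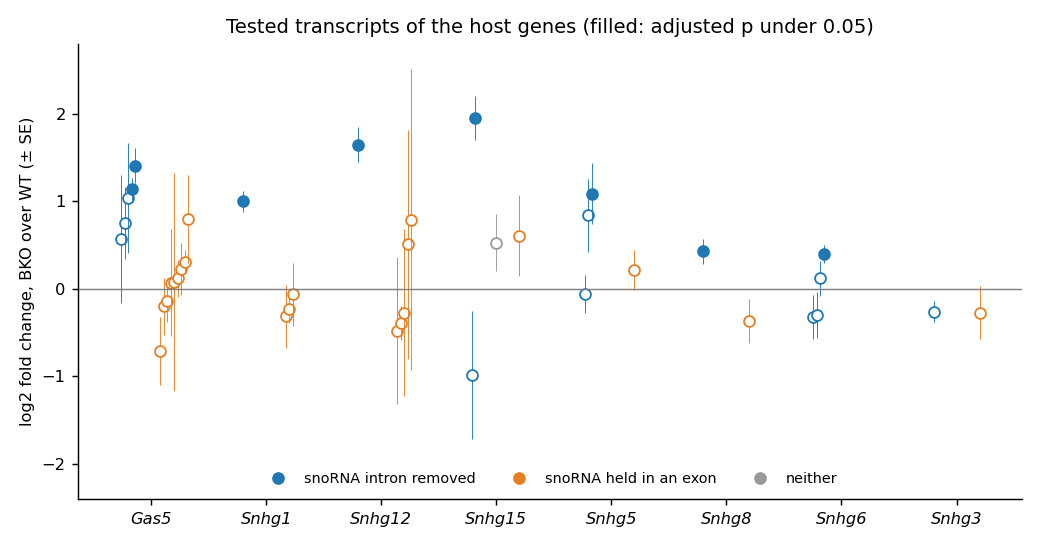
Log2 fold change of OPA1 BKO over WT mice with its SE (vertical axis) for each of the 40 tested transcripts, grouped by host gene (horizontal axis). Blue marks spliced transcripts, with no part of a snoRNA in an exon and at least 1 in an intron. Orange marks those that hold part of a snoRNA in an exon and grey the 1 that is neither. Filled symbols passed at an adjusted p under 0.05. The 8 filled symbols, from 0.40 to 1.95, are all blue, and the orange ones lie on either side of 0.

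The share of a transcript in its gene does not depend on scaling between mice. With diffSpliceDGE, 0 of the 40 host transcripts changed share beside 1.18% of 34143 transcripts, and 5 had an unadjusted p under 0.05. That test also called transcripts of unchanged genes in simulated counts. A test of the log2 ratio of each transcript to the others of its gene with limma was added after the data were seen. False calls do not account for 0 calls here, so the simulation does not decide between both tests. The limma test called 8 of the 40 beside 2.66%, and 21 had an unadjusted p under 0.05. The share rose for Snhg12-206 (1.83 ± 0.23 on the log2 ratio, adjusted p = 0.0012), Snhg1-211 (1.21 ± 0.16, 0.0016), Snhg15-204 (1.63 ± 0.27, 0.0076) and Gas5-210 (0.73 ± 0.17, 0.038). It fell for the retaining Snhg1-215 (-1.02 ± 0.16, 0.0062), Snhg12-204 (-1.40 ± 0.24, 0.0093) and Gas5-202 (-1.55 ± 0.36, 0.039), and for the spliced Snhg15-201 (-2.85 ± 0.56, 0.018), by limma. Without the 3 mice with most muscle RNA, 2 of these 8 calls were made, Snhg12-206 and Snhg1-211.

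Transcripts were then summed within each kind before the fit, an alternative also chosen after the data were seen. The spliced sum was higher in OPA1 BKO mice in 6 of the 7 hosts with both kinds (20.8% of all genes and host sums were higher) and lower in 1, and the retaining sum was higher in 0 and lower in 2, by edgeR. In Gas5 the spliced sum went from 18.2, 24.2 and 26.3 CPM (lowest, median, highest) in WT to 35.3, 46.4 and 92.1 CPM in OPA1 BKO mice (log2 fold change 1.17 ± 0.13, adjusted p = 4.2e-06). The retaining sum of Gas5 was 15.6, 18.0 and 24.8 CPM in WT and 15.2, 20.7 and 25.5 CPM in OPA1 BKO mice (0.11 ± 0.12, adjusted p = 0.49). The spliced sums did not overlap between genotypes in Gas5 and the retaining ones did.

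In Snhg12 the spliced sum had a log2 fold change of 1.53 ± 0.18 (adjusted p = 6.2e-06, edgeR) and the retaining sum one of -0.28 ± 0.09 (0.018). In Snhg1 these values were 0.97 ± 0.11 (5.1e-06) and -0.36 ± 0.12 (0.028), and in Snhg8 0.40 ± 0.13 (0.017) and -0.41 ± 0.23 (0.16). Both kinds had positive values in Snhg15 (1.38 ± 0.22, adjusted p = 0.00013, and 0.55 ± 0.40, 0.29) and Snhg5 (0.68 ± 0.15, 0.0015, and 0.13 ± 0.25, 0.71), where the spliced sum passed in edgeR. In Snhg3 both values were below 0 (-0.26 ± 0.10, adjusted p = 0.049, and -0.29 ± 0.27, 0.41). The values below 0 depended on scaling: with library size alone the retaining sums were at 0.27 in Snhg12, 0.19 in Snhg1, 0.14 in Snhg8 and 0.26 in Snhg3, and the spliced sum of Snhg3 at 0.29.

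As a percent of both kinds of transcript, which needs no scaling, retaining transcripts held 59.3, 63.1 and 69.9% (lowest, median, highest) of the Snhg12 counts in WT and 22.4, 34.9 and 44.5% in OPA1 BKO mice. They held 37.9, 45.5 and 50.4% of the Snhg1 counts in WT and 21.7, 25.6 and 28.0% in OPA1 BKO mice. For Gas5 the percent was 39.0, 43.6 and 52.6 in WT and 18.7, 28.5 and 36.4 in OPA1 BKO mice. In these 3 hosts every OPA1 BKO mouse was below every WT mouse. The groups overlapped in the other 4, with medians of 25.5% in WT and 15.8% in OPA1 BKO mice for Snhg15, 24.1 and 16.2% for Snhg5, 11.1 and 8.42% for Snhg8, and 12.6 and 11.2% for Snhg3. Snhg6 has no retaining transcript.

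The log2 ratio of spliced to retaining counts was higher in OPA1 BKO than in WT mice by 1.78 in Snhg12, 1.32 in Snhg1, 1.04 in Gas5, 0.81 in Snhg8, 0.58 in Snhg15 and 0.49 in Snhg5, and differed by -0.02 in Snhg3. The median over these 7 hosts was 0.81. Over the 50 other host genes in the annotation with both kinds of transcript and on average at least 100 counts in all and 10 in each kind, 42 of them protein coding, the median was 0.30, with quartiles of 0.11 and 0.44 and 41 of the 50 above 0. Snhg15 and Snhg3 do not reach those counts, and the median of the 5 hosts that do was 1.04. Of the 50, 3 had values over 1, chosen here after their values were seen: Ncl (1.33), the noncoding host Snhg16 (listed as 1810032O08Rik, 1.30) and Timm23 (1.09). In none of the 50 were all OPA1 BKO mice below, or all above, all WT mice. These values are a description without a test.

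**Figure D4:**
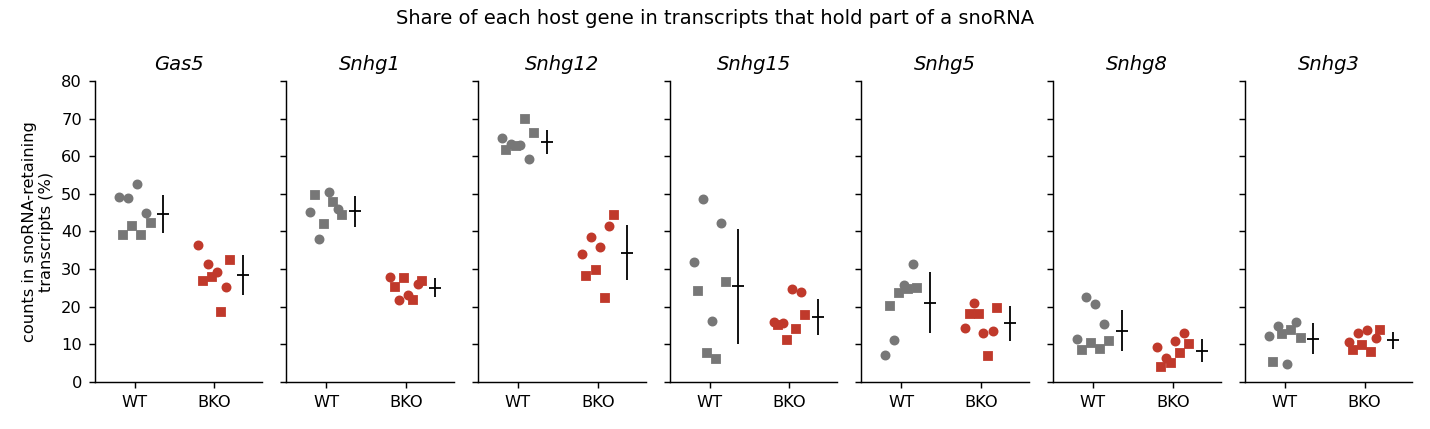
Retaining transcripts, which hold part of a snoRNA, as a percent of the estimated counts in spliced and retaining transcripts of each of 7 host genes (vertical axis, from 0). Snhg15-202, which is neither, is left out. Points are WT (grey) and OPA1 BKO (red) mice, circles are females, squares males, and the black bar is the mean ± SD of 8 mice. For Gas5, Snhg1 and Snhg12 all red points lie below all grey points, with medians of 28.5, 25.6 and 34.9% against 43.6, 45.5 and 63.1%.

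The snoRNAs themselves were not measured by these libraries, which were made from polyadenylated RNA. All 30 snoRNA genes of the hosts are listed in the deposited tables, but 22 of them are at 0 in every mouse, and the highest value of any of them in a mouse was 5.24 estimated counts, for Snora73b of Snhg3.

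The annotation lists 44 genes, mostly snoRNAs, that overlap a host or lie within 5 kb of it. Of the 9 that were tested, 4 (44.4%) were higher in OPA1 BKO mice and 0 lower by edgeR, beside 20.8% and 20.2% of all genes. Slc3a2, the heavy chain of several amino acid transporters, starts 106 bases from Snhg1 on the other strand and was at 51.7 to 106 CPM in WT and 130 to 259 CPM in OPA1 BKO mice (log2 fold change 1.28 ± 0.17, adjusted p = 2.9e-05). Zbtb37, a zinc finger gene that overlaps the start of Gas5 on the other strand, had a log2 fold change of 0.54 ± 0.16 (adjusted p = 0.012, edgeR) with overlapping groups, and none of the 31-base words of Gas5 occur in its transcripts. Rcc1, the nuclear exchange factor for Ran, overlaps Snhg3 on the same strand and was higher (0.50 ± 0.09, adjusted p = 0.00034, edgeR), opposite in sign to Snhg3. Myo1g, a myosin of blood cells, lies 4626 bases from Snhg15 and was higher too (1.05 ± 0.21, adjusted p = 0.0007, edgeR). Log2 fold changes that did not pass were 0.55 for Prss12 near Snhg8, -0.04 for Phactr4, -0.09 for Gm17300 and -0.12 for Trnau1ap.

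Of 16 factors of nonsense-mediated decay, 2 (12.5%) were higher and 3 (18.8%) lower, neither share above that of all genes (20.8% and 20.2%, to which the shares of the lists below compare as well), and the median log2 fold change was 0.11. Upf1, the helicase at the centre of the pathway, fell by 0.27 on the log2 scale (SE 0.05, adjusted p = 0.00071, edgeR). In TMM-scaled CPM every OPA1 BKO mouse was below every WT mouse. This fall is smaller than the shift between scalings, since the median of all genes was 0.01 with TMM and 0.57 with library size alone. Falls smaller than that shift, here and in the lists below, rest on the TMM scaling. The helicase gene Dhx34 (-0.29 ± 0.11) and Gspt2, a release factor (-0.59 ± 0.16), were lower as well. Pnrc2, which links UPF1 to decapping (0.45 ± 0.08), and Nbas (0.36 ± 0.08) were higher. The kinase gene Smg1 (0.12 ± 0.08), the endonuclease gene Smg6 (0.05 ± 0.05) and Upf2 (0.20 ± 0.08) did not pass. Of 7 genes of the exon junction complex, which marks spliced joints, Magoh was lower (-0.15 ± 0.06, adjusted p = 0.039, edgeR), a call lost in 9 of the 16 cases in which a single mouse was left out, and the other 6 did not pass.

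Among 22 enzymes of general RNA decay, 6 (27.3%) were higher and 3 (13.6%) lower with a median of 0.03. The highest were the superkiller subunit gene Ttc37 (0.46 ± 0.08), the exosome subunit gene Exosc2 (0.36 ± 0.08) and the nuclear exonuclease gene Xrn2 (0.33 ± 0.09), and the lower ones were Edc4 (-0.28 ± 0.06), Skiv2l (-0.26 ± 0.05) and Cnot8 (-0.19 ± 0.06). Of 12 coding genes known as decay targets, 8 (66.7%) were higher and 2 (16.7%) lower, with a median of 1.04. These were Gadd45a (5.28 ± 0.13), Atf3 (2.95 ± 0.37), Ddit3 (2.79 ± 0.12), Atf5 (1.84 ± 0.16), Ifrd1 (1.73 ± 0.16), Atf4 (1.26 ± 0.11), Upp1 (0.61 ± 0.22) and Map3k14 (0.59 ± 0.13), and Nat9 (-0.43 ± 0.08) and Tbl2 (-0.24 ± 0.08) were lower. Atf3, Atf4, Atf5, Ddit3 and Gadd45a are also known genes of the integrated stress response, and changes in their decay and their transcription cannot be told apart here.

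Annotated decay substrates were also followed in genes other than the hosts. In 4214 nuclear genes with both a protein-coding and a nonsense_mediated_decay transcript, the latter held 9.13, 9.76 and 11.8% of the counts (lowest, median, highest) in WT and 8.66, 9.17 and 10% in OPA1 BKO mice. The means differed by -0.786 points with overlapping groups (two-sided exact permutation p = 0.041, 8 against 8 mice, smallest p 0.00016). The p was above 0.05 in 9 of 16 cases in which a single mouse was left out (at most 0.081), and the median over genes of the share within a gene went the other way (0.216 points, exact permutation p = 0.064). In TPM the difference was -0.107 points (exact permutation p = 0.72).

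Transcripts of the retained_intron type, in 8697 genes, held 5.90, 6.75 and 8.45% in WT and 5.64, 5.97 and 6.20% in OPA1 BKO mice, a difference of -0.942 points (exact permutation p = 0.0022). It was -1.42 points in males (p = 0.029, the smallest an exact permutation test of 4 against 4 can give) and -0.46 in females (exact permutation p = 0.11), and in TPM it was -0.525 points (exact permutation p = 0.13). Per transcript, 3.13% of the 7533 retained_intron transcripts outside the hosts were higher and 7.29% lower (median log2 fold change -0.13). For the 2528 of the nonsense_mediated_decay type these values were 4.98%, 5.34% and -0.03, and for 25052 protein-coding ones 11.8%, 8.14% and 0.09.

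**Figure D5:**
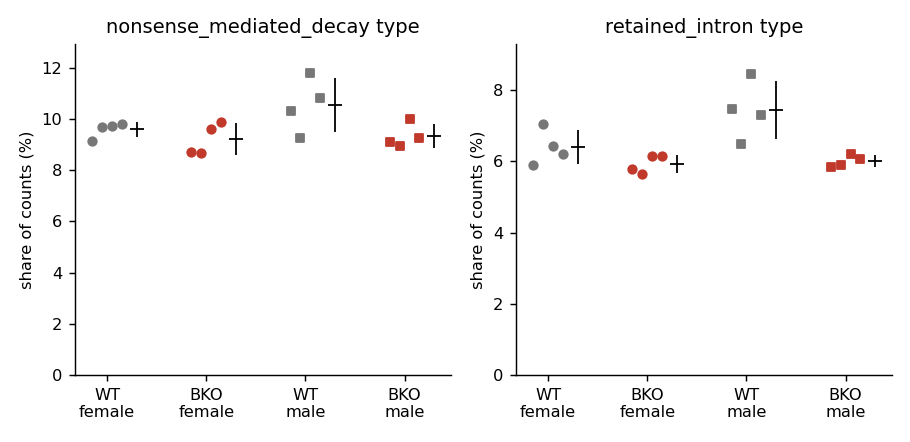
Percent of estimated counts in transcripts annotated as nonsense_mediated_decay (left, 4214 genes) and retained_intron (right, 8697 genes), on axes from 0, in each mouse by genotype and sex; circles are females, squares males, grey WT and red OPA1 BKO, with the mean ± SD of 4 mice as a black bar. On the right the OPA1 BKO mice lie between 5.64 and 6.20% and the WT mice between 5.90 and 8.45%, and the groups overlap in both panels.

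Of 18 genes for proteins that bind and assemble snoRNAs, 8 (44.4%) were higher and 1 (5.56%) lower, beside 20.8% and 20.2% of all genes, with a median of 0.14. Naf1 (0.79 ± 0.13, every OPA1 BKO mouse above every WT mouse), Dkc1, the pseudouridine synthase (0.61 ± 0.09), and Shq1 (0.55 ± 0.14) belong to the H/ACA class, and Nop58 (0.43 ± 0.11) to the box C/D class. Nop10, an H/ACA core protein, was lower (-0.77 ± 0.08, adjusted p = 1.2e-06, edgeR) in every OPA1 BKO mouse, while the methyltransferase gene Fbl (0.07 ± 0.09) and Nop56 (0.04 ± 0.10) did not pass.

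Ribosomal protein genes are the classical TOP genes. The list of cytosolic ribosomal protein genes was made by symbol and includes like-named genes such as Rpl22l1, Rpl3l and Rps27l. Of its 83 tested genes 7 (8.43%) were higher and 11 (13.3%) lower, with a median of 0.00. The largest called changes were Rpl22l1 (0.48 ± 0.14), Rpl13a (0.45 ± 0.07) and Rpl10 (0.44 ± 0.17) upwards and Rps27l (-0.50 ± 0.06), Rplp2 (-0.46 ± 0.08) and Rpl11 (-0.38 ± 0.08) downwards. Rpl13a is itself a host of box C/D snoRNAs. Of 14 TOP translation factors 2 (14.3%) were higher (Npm1 0.40 ± 0.10, Eif4b 0.25 ± 0.09) and 1 (7.14%) lower (Eif3f -0.33 ± 0.07), with a median of 0.03.

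Of 10 further hosts known as noncoding, Snhg16 rose from 4.44 to 6.64 CPM in WT to 7.68 to 17.9 CPM in OPA1 BKO mice without overlap (log2 fold change 1.20 ± 0.17, adjusted p = 3.8e-05, edgeR), Snhg18 was higher (0.62 ± 0.15) and Snhg11 lower (-1.45 ± 0.28). Snhg11 is typed as protein coding in the annotation and is counted among the coding hosts as well. Zfas1 (0.25 ± 0.10), Snhg17 (0.14 ± 0.12), Snhg20 (-0.24 ± 0.10) and Dancr (-0.28 ± 0.15) did not pass, and the median of the 10 was 0.14. Of 240 protein-coding genes with a snoRNA in an intron 79 (32.9%) were higher and 27 (11.2%) lower (median 0.11), beside 20.8% and 20.2% of all genes. The annotation also holds 26 tested noncoding or pseudogene hosts, which include many of the 10 named before. Of these 26, 5 (19.2%) were higher and 4 (15.4%) lower (median -0.05). Among them 2410006H16Rik (1.58 ± 0.19) and AI506816 (0.83 ± 0.11) were higher, with every OPA1 BKO mouse above every WT mouse. The host 9330159M07Rik was lower (-0.60 ± 0.10).

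Over the 16 mice the hosts resembled each other to different degrees. The Pearson correlation of log2 CPM over the 28 pairs of hosts ranged from -0.42 to 0.95 with a median of 0.71, and from -0.30 to 0.92 with a median of 0.27 once the 4 group means were removed. The gene most like Gas5 was Ascc2 (r = 0.98), and once the group means were removed it was H2afx (0.91). For Snhg1 these were Snx8 (0.92) and Lyar (0.86), for Snhg12 Gltp (0.93) and Halr1 (0.87), for Snhg15 Jund (0.94) and Dbp (0.89), and for Snhg5 Noc2l (0.96) and Trappc2l (0.89). For Snhg8 they were Gm10275 (0.95) and Gm21188 (0.90), for Snhg6 Slc25a28 (0.91) and Rita1 (0.88), and for Snhg3 Tmem147 (0.83) and Xkr8 (0.81). These values describe the 16 mice, which share genotype and sex between genes, and each is the highest among all genes tested.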

How the data were processed

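RNA from the BAT of 16 mice was sequenced by the authors after a stranded preparation of polyadenylated RNA, and quantified with kallisto 0.45.0 (mm10 per the labels). The annotation of their index and the strand setting are not given in the sources used here. For each transcript the authors deposited estimated counts, not normalized between mice, and TPM, which scales counts per length to a fixed total. The genome alignment that the study also describes was not analysed here.

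Mice were grouped by the genotype and sex labels and are separate animals; no batch or litter is given. Within groups, correlations across genes were 0.947 to 0.991, and no file was a copy of another. Transcripts were joined to GENCODE M21 by identifier without version (133284 of 135308; the rest held 0.483 to 0.73% of counts). Per gene, estimated counts were added up, rounded to whole numbers and filtered (filterByExpr, minimum count 10, minimum total 15). After TMM scaling, the test was that of edgeR 4.0.16 (R 4.3.3, quasi-likelihood, sex as a term, prior count 0.125), with Benjamini-Hochberg adjustment over all genes or transcripts and a threshold of 0.05. Sex-specific effects came from 4 group means. Transcript shares used diffSpliceDGE and, added later, limma 3.58.1 with a pseudocount of 0.5. Scripts were tested on simulated data. Shares of counts per mouse were compared by exact permutation. A count of 0 allows up to 3 counts, for counting error only.

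Alternatives were DESeq2 1.42.0, RLE factors, library size alone, nuclear genes alone, other filters, no sex term, limma on log2(TPM + 0.5) or log2(TPM + 0.1), transcripts of the same version alone, and each mouse left out. Leaving out the 3 mice with most muscle RNA and summing transcripts by kind were chosen after seeing the data. Transcript sequences are GENCODE's and starts are RefSeq's. Named genes are all hosts, Opa1, tested neighbours within 5 kb, the most alike gene of each host and, from each list, with preference, the 3 largest and 3 smallest changes that passed. Of the tested neighbours, 1 is not reported here. The hosts and lists were chosen with earlier results of these data known.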

Additional observations from a re-analysis of the deposited data

Results flagged for a closer look

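In 68 groups of 4 mice, the highest or lowest mouse was checked for a gap to the nearest other mouse that was large against the range of its group (Dixon's test), which chance gives in about 1 in 20 groups. It was found in 4. Snhg8 was at 9.99 CPM in the highest WT female, a gap of 0.921 of the range. The share of counts in nonsense_mediated_decay transcripts was 9.13% in the lowest WT female (0.834). The percent of Snhg5 counts in retaining transcripts was 21 in the highest OPA1 BKO female (0.839) and 6.81 in the lowest OPA1 BKO male (0.868).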

How the results depend on the processing

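No paired analysis was possible because the labels give no replicate numbers that pair mice. Gas5, Snhg1, Snhg12, Snhg15 and Snhg5 kept their direction and call under every alternative run, and the lowest and highest counts without single mice were 5 and 6 hosts higher and 0 and 1 lower. Without single mice, 0 to 3 hosts passed in females, 5 to 6 in males and 0 to 1 in the interaction, 6 to 8 host transcripts passed, 0 to 1 exon junction genes, 3 to 5 other noncoding hosts, and the share of nonsense_mediated_decay transcripts differed by -0.92 to -0.539 points. With the 3 mice with most muscle RNA left out, 0 hosts passed in females, 5 host transcripts were called and the log ratio called 2; with no filter on low counts these were 5 host transcripts, 1 changed share by diffSpliceDGE and 0 exon junction genes. The log ratio called 8 shares where diffSpliceDGE called 0.

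Library size alone, which moved the median of all genes to 0.57 (10869 genes higher, 373 lower), gave 7 hosts in females, 1 interaction and 15 host transcripts. It called 14 decay factors, 7 exon junction genes, 22 decay enzymes, 18 snoRNP genes, 14 TOP factors, 74 ribosomal protein genes, 7 other noncoding hosts, 220 coding hosts and 16 noncoding or pseudogene hosts. Snhg3 turned to 0.30 with it, and to 0.69 and 0.71 with TPM plus 0.5 and 0.1; its spliced and retaining sums turned to 0.29 and 0.26, and the retaining sums of Snhg12, Snhg8 and Snhg1 to 0.27, 0.14 and 0.19. The share of nonsense_mediated_decay transcripts differed by -0.107 points in TPM, 0.216 as the median over genes, -0.371 in females and -1.2 in males, and that of retained_intron transcripts by -0.525, -0.162 and -0.46 in TPM, as the median over genes and in females. Snhg8 (0.34) and Snhg6 (0.19) lost their call with no term for sex, and Snhg6 (0.24) with no filter. Apart from scaling and the left-out mice, the cause was not tested. Low counts limit Snhg15, Snhg3 and most single transcripts.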
